A study of Mus musculus with 6 samples.

Results

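Among 10109 promoters that carried an ATAC-seq peak in all 6 libraries of mouse white blood cells, 1588 ranked at least 5 percentile points higher in every library of mice in high-altitude de-acclimatization (HADA) than in any control library. These promoters were chosen by their own peak strength. Peaks of the 6 deposited lists on chromosomes 1 to 19 were merged where they shared 1 bp, which gave 60298 regions, of which 23013 held a peak in all 6 libraries. A region counted as a shared promoter when a summit lay within 1000 bp of a transcript start of a protein-coding gene. Its strength in a library was the highest −log10 p-value of its peaks, given as a percentile of that library's own peak list, and a promoter was taken as stronger in HADA when its lowest HADA percentile stood at least 5 points above its highest control percentile. The reverse rule found 264 promoters that were weaker in HADA, 2.61% of the shared promoters against 15.7% stronger. Because the rule used the comparison of the groups itself, the differences below are descriptions and carry no test.

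The libraries were made from leukocytes of peripheral blood after red cell lysis, 3 libraries from control mice and 3 from HADA mice. HADA mice had been kept in a hypobaric chamber that simulates high altitude and were then returned to normal oxygen, and controls stayed at normal oxygen. The study used male C57BL/6j mice. The labels give no interval between the return and the blood sample for these libraries, and they do not tie a library to an animal, so the spread between libraries may be technical in part. The cells were not sorted, and a larger share of a cell type cannot be told apart from more accessible DNA in each of its cells.

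ATAC-seq uses the Tn5 transposase to insert adapters into DNA that nucleosomes leave open. Promoters of most active genes are open at the site where transcription starts. Many of them lie in CpG islands, stretches rich in CpG dinucleotides, and are open in nearly every cell type. Promoters of genes used by a single blood lineage are more often poor in CpG and open only in that lineage.

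The 6 stretches that follow show sequences rich and poor in CpG among the promoters stronger in HADA. Each is 120 bases of the GRCm39 reference, written 5′ to 3′ on the strand of its gene, taken as near the strongest summit as possible, upstream of the assigned start and without any untranslated exon. CpG dinucleotides are in capitals. Ms4a1 encodes CD20 of B cells, Pou2af1 a B cell coactivator of octamer-binding factors, H2-Aa an MHC class II chain, Il7r the interleukin-7 receptor, Lef1 a T cell transcription factor and Cldn23 a claudin of tight junctions. They lie at chr19:11243773-11243892 on the minus strand (Ms4a1), chr9:51124637-51124756 on the plus strand (Pou2af1), chr17:34506799-34506918 on the minus strand (H2-Aa), chr15:9530007-9530126 on the minus strand (Il7r), chr3:130905825-130905944 on the plus strand (Lef1) and chr8:36293714-36293833 on the minus strand (Cldn23).
Ms4a1: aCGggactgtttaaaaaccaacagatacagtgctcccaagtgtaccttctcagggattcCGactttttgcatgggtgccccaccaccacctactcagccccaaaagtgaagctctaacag
Pou2af1: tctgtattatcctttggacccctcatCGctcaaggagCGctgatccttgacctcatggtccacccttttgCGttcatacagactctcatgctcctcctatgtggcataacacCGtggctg
H2-Aa: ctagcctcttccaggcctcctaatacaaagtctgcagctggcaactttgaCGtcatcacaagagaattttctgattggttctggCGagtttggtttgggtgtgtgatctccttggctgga
Il7r: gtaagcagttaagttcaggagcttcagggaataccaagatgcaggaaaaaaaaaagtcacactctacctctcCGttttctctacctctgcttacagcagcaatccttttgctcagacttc
Lef1: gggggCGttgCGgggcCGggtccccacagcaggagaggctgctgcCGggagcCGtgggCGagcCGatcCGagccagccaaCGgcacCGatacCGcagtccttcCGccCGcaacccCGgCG
Cldn23: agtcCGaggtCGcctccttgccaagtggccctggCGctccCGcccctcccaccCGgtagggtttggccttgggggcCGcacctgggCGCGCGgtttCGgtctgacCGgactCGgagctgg

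The Lef1 stretch holds 15 CpG dinucleotides and the Cldn23 stretch 12. The Pou2af1 stretch holds 4, those of Ms4a1 and H2-Aa hold 2 each and that of Il7r holds 1. The first CpG of the H2-Aa stretch lies inside a full cyclic AMP response element, TGACGTCA, the only match to the 20 consensus motifs searched in these stretches.

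Peak lists differed in length, and the controls differed among themselves. The 3 control lists held 41562, 41322 and 34128 peaks and the 3 HADA lists 44478, 44119 and 45885. Control 3 had the shortest list, and it was the lowest of the 6 libraries at 1296 of the 1588 promoters stronger in HADA (81.6%) and at 61.2% of all shared promoters. Control 1 was the highest control at 1225 of the 1588 (77.1%) and at 68.8% of all. Without control 1 the rule found 3328 promoters and without control 3 it found 1967. The read depth of the libraries is not given in the sources used here. In place of depth, the number of reads over each summit (the pileup) was solved from the deposited fold enrichment and −log10 p-value, and the genome background so recovered lay between 1.69 and 2.34 reads per position over the 6 libraries. With the same number of strongest peaks kept in each list, the rule found 1211 stronger and 365 weaker promoters, and 1178 of the 1588 (74.2%) still passed. The part of depth was not tested. Where a group or library decides a count, the count without it is given.

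The promoters stronger in HADA were of middle rank in control blood and nearer to the level of the other promoters in HADA blood. Their median percentile was 64.7, 59.2 and 46.9 in control 1, 2 and 3 and 76.3, 76.7 and 77.4 in HADA 1, 2 and 3. All shared promoters had median percentiles of 83.4, 80.6 and 76.8 in controls and 85.5, 85.3 and 85.9 in HADA. The 3 HADA medians of the chosen promoters lay within about a point of each other, whereas the controls spread over many points with control 3 lowest. Per promoter, the mean HADA percentile exceeded the mean control percentile by a median of 18.9 points (quartiles 14.1 and 25.2), against 4.33 points over all shared promoters.

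**Figure D1:**
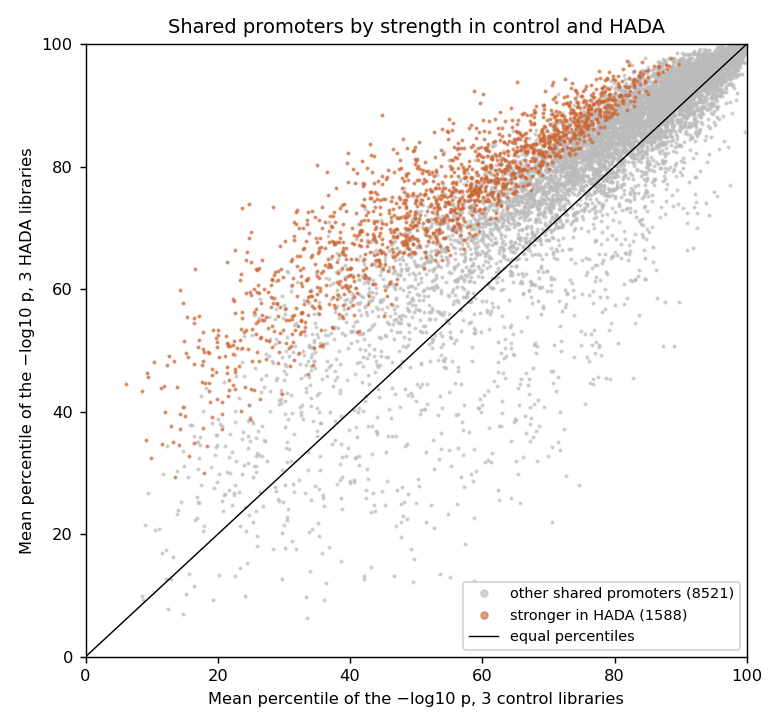
Each point is a shared promoter placed by its mean percentile in the 3 control libraries (horizontal axis) and the 3 HADA libraries (vertical axis), with the 1588 promoters stronger in HADA in orange and the other 8521 in grey. The orange points run along the upper edge of the cloud and thin out towards the top right, where a promoter near the 100th percentile in controls has no room to gain 5 points.

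The upward shift of the whole class of promoters matters for reading the count. Percentiles did not overlap between groups and were higher in HADA at 5069 shared promoters (50.1%), and they were lower in HADA at 853 (8.44%). When each promoter was ranked only among the shared promoters of its library, so that the class as a whole could not move, the groups did not overlap at 2470 promoters higher in HADA (24.4%) and 2275 lower (22.5%). On that scale 1189 of the 1588 promoters (74.9%) still had every HADA library above every control library. The rule itself, applied on that scale with the same gap of 5 points, found 959 stronger and 985 weaker promoters, and 695 of the 959 were among the 1588.

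Read pileups at the summits were compared next. The median summit pileup of the 1588 was 48, 39 and 30 reads in the controls and 115, 99 and 106 reads in HADA, while over all shared promoters it was 108, 90 and 91 against 185, 153 and 159. To set aside the general rise, each pileup was taken relative to the median shared promoter of its own library on the log2 scale. On this scale the 1588 were higher in HADA by a median of 0.60, against -0.04 over all shared promoters, and 1309 of them (82.4%) were higher in every HADA library than in any control, as were 25.2% of all shared promoters. Local background was also higher at these promoters in HADA, with medians of 4.68, 4.37 and 3.07 reads in controls and 9.51, 8.49 and 9.33 in HADA, as it was over all shared promoters, with 9.12, 8.04 and 7.48 against 14.8, 12.5 and 13.4. Fold enrichment over that background differed less than the pileup, with medians of 8.09, 7.13 and 6.77 against 10.6, 10.3 and 9.99, and of 10.8, 9.86 and 10.5 against 12.0, 11.5 and 11.3 over all shared promoters.

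A fit with limma over all 10109 shared promoters, on normal scores of the rank of the −log10 p-value, called 1282 promoters higher in HADA (12.7%) and 1309 lower (12.9%) at a false discovery rate of 0.05. Without HADA 1, 2 and 3 in turn the higher calls were 708, 291 and 337, and the lower calls were 539 without HADA 2 and 559 without HADA 3. With the replicate number as a block the fit called 818 higher and 978 lower. When all shared regions were ranked and fitted together, it called 1535 shared promoters higher and 485 lower, and the split was no longer even. The first of these fits called 824 of the 1588 (51.9%) higher and 0 lower, and since the rule used this contrast nothing is read from that share. The same fit on median-centred pileups called 1339 shared promoters higher (13.2%) and 1703 lower (16.8%), among them 1015 of the 1588 higher and 1 lower.

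The threshold ran through a dense part of the distribution. The median gap between the lowest HADA and the highest control percentile was 8.40 points, and 571 promoters had a gap of 10 points or more. Just inside the threshold were H2-T5, a nonclassical MHC class I gene, Zfp12, a zinc finger gene, and Gdpd1, a phospholipase gene, with gaps of 5.007, 5.004 and 5.0008 points. Just outside it were Det1, Ap1s1 and Fbxo46 with gaps of 4.998, 4.991 and 4.987 points.

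The widest gap belonged to Cd180, a Toll-like receptor homologue of B cells that pairs with the product of Ly86. The Cd180 promoter (GRCm39 chr13:102829559-102830608, strongest summit 79 bp downstream of the start, in an untranslated exon) stood at percentiles 36.6, 24.0 and 13.5 in controls and 73.6, 71.8 and 76.1 in HADA. Its summit pileup was 48, 41 and 31 reads in controls and 170, 134 and 156 reads in HADA, a difference of 1.17 on the median-centred log2 scale. Every HADA library was thus far above every control, and the percentile gap between the groups was 35.2 points. Ly86 was among the 1588 as well, with pileups of 50, 48 and 19 reads in controls and 127, 110 and 127 in HADA.

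S1pr4, Dll4 and Laptm5 were among the next promoters. S1pr4 encodes a sphingosine-1-phosphate receptor of lymphocytes, and its promoter had pileups of 66, 69 and 53 reads in controls and 180, 168 and 175 in HADA. Dll4, a Notch ligand, had pileups of 20, 15 and 13 against 78, 60 and 57. Laptm5, a lysosomal membrane protein gene of blood cells, had a second promoter region (chr4:130642662-130643392) with percentiles of 39.3, 41.8 and 44.4 in controls and 75.2, 74.5 and 71.6 in HADA. At Laptm5 the 3 controls lay close together, and control 3 was the highest of them. Its pileups were 118, 102 and 133 reads against 279, 214 and 214, which after median-centring is a difference of only 0.22.

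Gga2, an adaptor of transport from the Golgi, was the strongest of the 20 in HADA, with percentiles of 52.2, 50.9 and 42.6 in controls and 86.2, 80.5 and 82.3 in HADA and pileups of 29, 30 and 21 against 179, 120 and 136 reads. Parp11, a mono-ADP-ribosyltransferase gene, had percentiles of 50.5, 45.7 and 13.5 in controls and 79.0, 79.0 and 79.3 in HADA. Bahd1, which encodes a heterochromatin protein, had percentiles of 13.6, 11.4 and 17.9 in controls and 52.0, 64.7 and 62.7 in HADA. Cldn23, whose sequence is shown above, rested on few reads in controls, with pileups of 11, 13 and 12 against 33, 31 and 43. The rest of the 20 were Cyrib, Mei4, Specc1, Hs3st6, Zcchc3, Septin4, Fhl3, Zfp365, Prss12, Plekha7, Synpo and Hcn3, with gaps from 30.4 points at Cyrib down to 25.5 at Hcn3. The median difference of means over the 20 was 37.9 points by the −log10 p-value and 29.0 points when fold enrichment was ranked in its place.

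**Figure D2:**
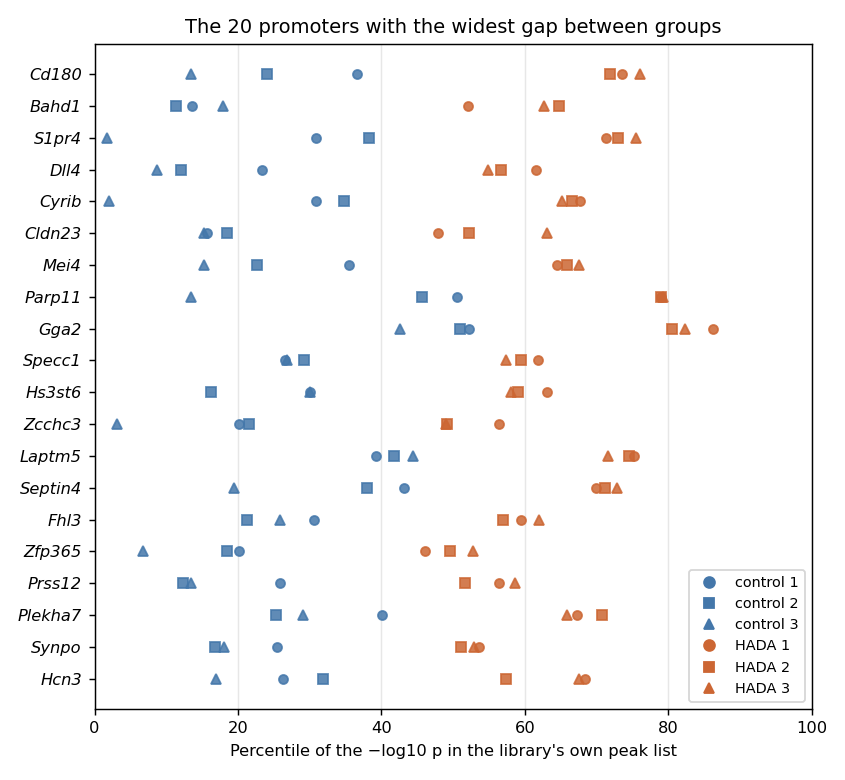
The 20 promoters with the widest gap, ordered by gap, with the percentile of the −log10 p-value in each library's own peak list on the horizontal axis, controls in blue and HADA in orange. No blue and orange points overlap in any row, as the rule requires, and control 3 (blue triangle) lies far to the left of the other controls at S1pr4, Cyrib, Parp11 and Zcchc3.

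Among the cell type marker lists, the B cell list had the highest share of stronger promoters. Of 13 shared promoters of genes in a B cell marker list, 12 were stronger in HADA, against 15.7% of all shared promoters, and 0 were weaker. The receptor genes among them were Cd79b, the signalling partner of the B cell antigen receptor, Ms4a1, Cd72, the chemokine receptor gene Cxcr5 and Tnfrsf13c, the receptor for the survival factor BAFF. The transcription regulators were Pax5, which fixes B cell identity, Bach2 and Pou2af1, and the remaining members were Fcrla, Ralgps2, the adaptor gene Bank1 and H2-Aa. Cd37, a tetraspanin gene also used by other leukocytes, was the exception and stood between 97.1 and 98.5 in all 6 libraries.

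Ms4a1 gives the pattern of the group. Its promoter (chr19:11243162-11244419) had pileups of 93, 60 and 15 reads in controls and 312, 253 and 235 reads in HADA, and percentiles of 82.1, 72.2 and 25.9 against 92.5, 92.7 and 90.5. The 3 HADA libraries were alike, and the 3 controls were not, with control 3 far below the others. At Pax5 (chr4:44704158-44706183) the pileups were 52, 33 and 13 reads in controls and 175, 194 and 160 in HADA. At Tnfrsf13c (chr15:82108223-82109412) they were 53, 37 and 10 against 156, 137 and 138. At Cd79b, the weakest of the group, they were 23, 18 and 10 against 72, 61 and 78. In each of these control 1 was the highest control and control 3 the lowest.

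Bach2, a repressor that keeps B cells from becoming plasma cells, and Pou2af1 were the strongest of the regulators. Bach2 had percentiles of 85.4, 77.6 and 49.2 in controls and 93.0, 95.0 and 93.6 in HADA and pileups of 142, 94 and 40 reads against 380, 360 and 336. Pou2af1 had pileups of 95, 78 and 34 reads in controls and 323, 304 and 299 in HADA. Bank1, with percentiles of 72.1, 66.9 and 50.7 against 77.3, 78.7 and 77.9, had the narrowest gap in the group, 5.16 points. Over the 13 shared promoters of the list the summed pileup over genome background was 739.8, 496.1 and 400.1 in controls and 1337, 1438 and 1225 in HADA. The median difference over the list was 1.34 on the median-centred log2 scale, against -0.04 over all shared promoters.

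The B cell count depended on the measure of strength. When the deposited fold enrichment was ranked in place of the −log10 p-value, 0 of the 13 passed the rule, against 1189 of all 10109 shared promoters. The median fold enrichment of the 12 was 7.15, 6.75 and 5.39 in controls and 7.74, 7.72 and 7.29 in HADA, while their median local background was 7.72, 6.28 and 3.02 reads against 25.5, 22.9 and 24.6. At H2-Aa the fold enrichment was 4.02, 4.70 and 5.13 in controls and 4.48, 4.68 and 4.35 in HADA, and the local background 28.6, 23.5 and 7.19 reads against 80.8, 69.5 and 74.2. Reads in HADA were thus more numerous around these summits as well as at them. When summit pileups were ranked, the count was again 12 of 13, against 17.0% of all shared promoters. When promoters were ranked among shared promoters only, 9 of 13 passed, against 9.49% of all. At a gap of 10 points 7 of 13 passed, against 5.65% of all. Without control 3, 23 promoters of the list were shared by the remaining libraries. Of these, 21 passed the rule, against 18.5% of all shared promoters in that setting.

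MHC class II genes, whose products present antigen to helper T cells on B cells, dendritic cells and macrophages, had a pattern like that of the B cell list. This family and the Gimap, Ms4a, sphingosine-1-phosphate receptor and Toll-like receptor families were picked after values had been seen. Of 9 shared promoters of class II genes, 8 were stronger in HADA, against 15.7% of all shared promoters, 2 of them at H2-DMb2. H2-Eb1, a beta chain gene, had the widest gap of the family with pileups of 104, 95 and 26 reads in controls and 345, 298 and 301 in HADA. H2-Ab1, its counterpart, had 122, 97 and 52 against 364, 321 and 299. H2-Oa and H2-Ob encode the chains of a modulator of peptide loading that B cells use. H2-Oa had pileups of 50, 48 and 24 against 155, 144 and 139, and H2-Ob 116, 80 and 32 against 315, 268 and 282. H2-DMa, a chain of the peptide loading factor, was the exception, with percentiles of 92.8, 89.9 and 88.2 against 95.3, 94.0 and 95.4. Control 3 was the lowest library at all 8 stronger promoters. Fold enrichment overlapped between groups at 6 of the 8, all but H2-Eb1 and H2-Oa. As a percentile, fold enrichment was higher in every HADA library than in any control at 83.4% of the 1588 and 34.6% of all shared promoters. At H2-Ab1 fold enrichment was 3.18, 3.40 and 3.89 in controls and 3.81, 3.51 and 3.22 in HADA, with a local background of 37.7, 27.9 and 12.6 reads against 94.7, 90.6 and 92.3.

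T cell promoters passed the rule in part. Of 19 shared promoters of T cell marker genes, 7 were stronger in HADA (36.8%, against 15.7% of all shared promoters) and 0 were weaker. The list had a median control percentile of 44.9, and 36.2% of all shared promoters with a mean percentile from 40 to 55 were stronger. The transcription factor genes Lef1 and Gata3 had the widest gaps. Lef1 (chr3:130904393-130906746) had pileups of 46, 39 and 32 reads in controls and 160, 130 and 151 in HADA, and Gata3 (chr2:9883036-9884741) had 35, 36 and 28 against 114, 93 and 92. In both the 3 controls were close together. The members of the receptor signalling chain were Cd3e, a subunit of the T cell receptor complex, with pileups of 39, 41 and 28 against 90, 73 and 79, the kinase gene Zap70 with 40, 25 and 21 against 80, 80 and 76, and the adaptor gene Lat with 42, 34 and 25 against 108, 86 and 97. Ubash3a, a negative regulator of that signal, and Il7r were the last of the 7. Il7r was weak in all libraries, with pileups of 20, 19 and 20 reads against 40, 46 and 43.

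Other T cell promoters did not pass the rule. Ccr7, the homing receptor for lymph nodes, missed it at a gap of 4.98 points, with pileups of 147, 110 and 54 reads in controls and 315, 331 and 311 in HADA. Cd3d, next to Cd3e, stood between 93.1 and 96.5 in all 6 libraries. Trat1 was lower in HADA in every library, with percentiles of 35.5, 73.8 and 47.2 against 31.9, 26.3 and 15.9. The T cell count changed with the libraries used: it was 12 of 21 without control 1, when 32.9% of all shared promoters passed, and 13 of 19 without HADA 1, when 19.2% passed. It was 2 of 19 when fold enrichment was ranked and 3 of 19 when promoters were ranked among shared promoters only, when 11.8% and 9.49% of all passed.

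Gimap genes encode GTPases that support the survival of lymphocytes, and 5 of their 6 shared promoters were stronger in HADA. For this and the next families the share over all shared promoters was 15.7% stronger and 2.61% weaker. Gimap5 had pileups of 88, 58 and 30 reads in controls and 194, 165 and 198 in HADA, and Gimap6 had 61, 61 and 49 against 153, 140 and 140. Gimap3 was the sixth, with a gap of 3.89 points. A further stronger promoter, assigned to Gm28053 as the nearest start, also lay within reach of the Gimap7 start and is not in the count of 6. All 3 shared promoters of the Ms4a family passed the rule, and beside Ms4a1 these were Ms4a4c with 27, 25 and 18 reads against 61, 61 and 78 and Ms4a6b with 20, 24 and 20 against 48, 37 and 44. Of the 3 sphingosine-1-phosphate receptor promoters 1 passed, S1pr4, and of the 11 Toll-like receptor and Cd180 promoters 4 passed, Cd180, Ly86, Tlr1 and Tlr9, while Tlr5 was weaker.

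**Figure D3:**
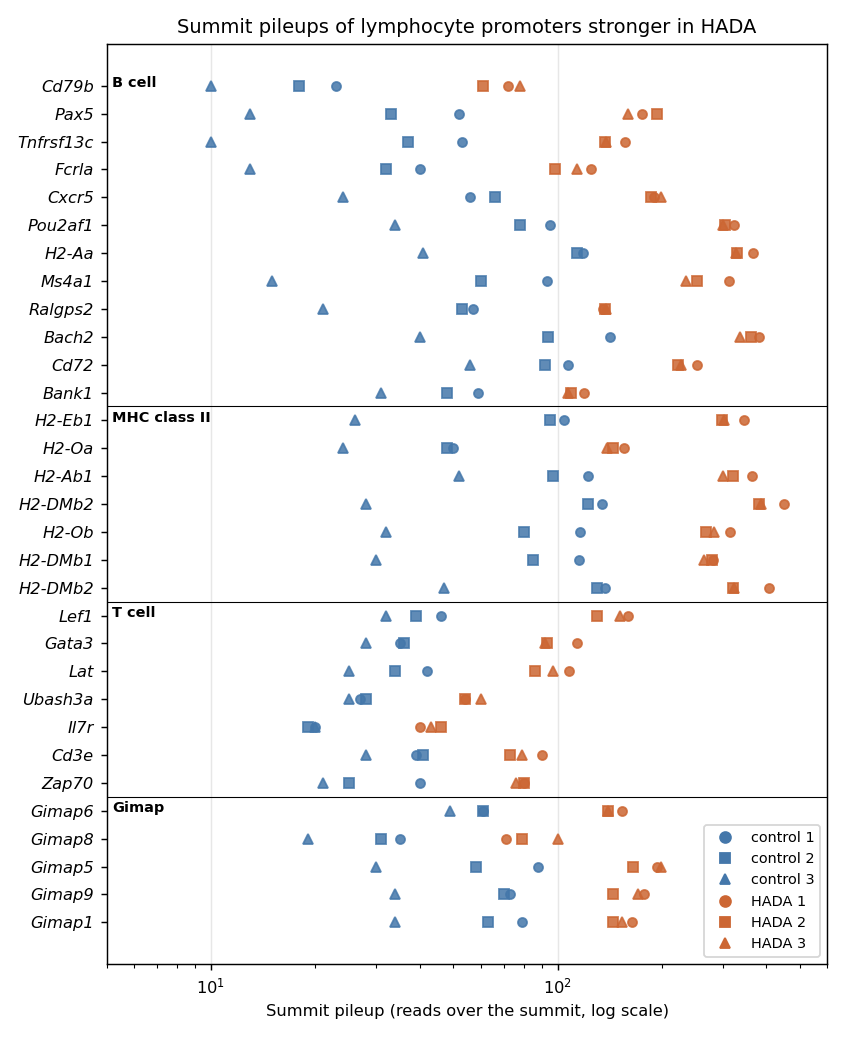
Summit pileups (reads over the summit, log axis) of the promoters stronger in HADA in the B cell, MHC class II, T cell and Gimap lists, with controls in blue and HADA in orange and H2-Aa drawn once, under B cell. The HADA points of each B cell promoter sit close together while the controls spread with control 3 lowest, and the controls of Lef1 and Gata3 lie closer together.

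Lists of other blood cells held few or none of these promoters. Over all shared promoters 15.7% were stronger and 2.61% weaker. Of the 8 shared promoters of neutrophil genes 0 were stronger and 5 were weaker in HADA (Fpr1, Trem1, S100a8, Hp and Mmp8), and of 12 monocyte promoters 0 were stronger and 3 weaker (Cd68, Treml4 and Cd14). S100a8, a subunit of calprotectin, had pileups of 82, 70 and 157 reads in controls and 59, 19 and 24 in HADA. Summed over the neutrophil list, the pileup over background was 344.2, 240.0 and 551.5 in controls and 173.5, 125.0 and 99.8 in HADA, so the library lowest at B cell promoters, control 3, was highest at neutrophil promoters. Over the monocyte list it reached 664.6 in controls and 564.9 in HADA, and the ranges of the groups overlap. Summed neutrophil marker promoters thus differed in the opposite direction to the B cell list across the same libraries, and the part of the cell mixture in the 1588 was not tested.

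Natural killer, platelet and pan-leukocyte lists were mixed. Tbx21, the transcription factor T-bet of killer cells and helper T cells, was the 1 of 6 natural killer promoters that passed, with pileups of 23, 19 and 13 reads against 38, 37 and 41. Itgb3, an integrin gene of platelets and other cells, was stronger with 56, 48 and 41 against 139, 122 and 123, while Tal1, in the same list of 2, was weaker. Of 18 pan-leukocyte promoters 2 were stronger (11.1%), the second Laptm5 region and a region of Ikzf1, and 2 were weaker, another region of Ikzf1 and a region of Lcp1, the gene of the actin bundling protein L-plastin. The stronger share was near the 15.7% of all shared promoters. Hdc, the only shared promoter of the eosinophil and basophil list, was weaker.

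At some genes separate promoters differed in opposite directions by percentile. Of 574 genes with 2 or more shared promoters, 208 had at least 1 that was stronger in HADA. Among these 208 genes, 29 had more than 1 such promoter and 9 had another promoter that was weaker. Of all shared promoters 15.7% were stronger and 2.61% weaker, and whether 29 and 9 exceed what these shares give was not tested. Ikzf1, which encodes the lymphoid regulator Ikaros, was 1 of the 9. Its region at chr11:11639999-11640807 had pileups of 89, 60 and 51 reads in controls and 166, 151 and 161 in HADA, and percentiles of 58.5, 35.8 and 17.6 against 68.3, 69.8 and 72.5. The region at chr11:11634944-11636849 had percentiles of 82.6, 83.4 and 88.8 in controls and 74.1, 76.9 and 76.7 in HADA, but its pileups, 148, 135 and 202 reads against 185, 170 and 166, overlapped, so the opposite direction held for percentiles and not for raw reads. The pileups of the weaker region overlapped between groups at 6 of the 9 genes, Ikzf1, Rara, Rgs3, Sh3bp2, Trim8 and Zhx2. At 77.9% of all shared promoters the pileup was higher in every HADA library than in any control. Sgms1, a sphingomyelin synthase gene, had 2 promoters that were stronger and 1 that was weaker among its 7. The remaining genes of the 9 were Aldh3b1 and Arap1.

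**Figure D4:**
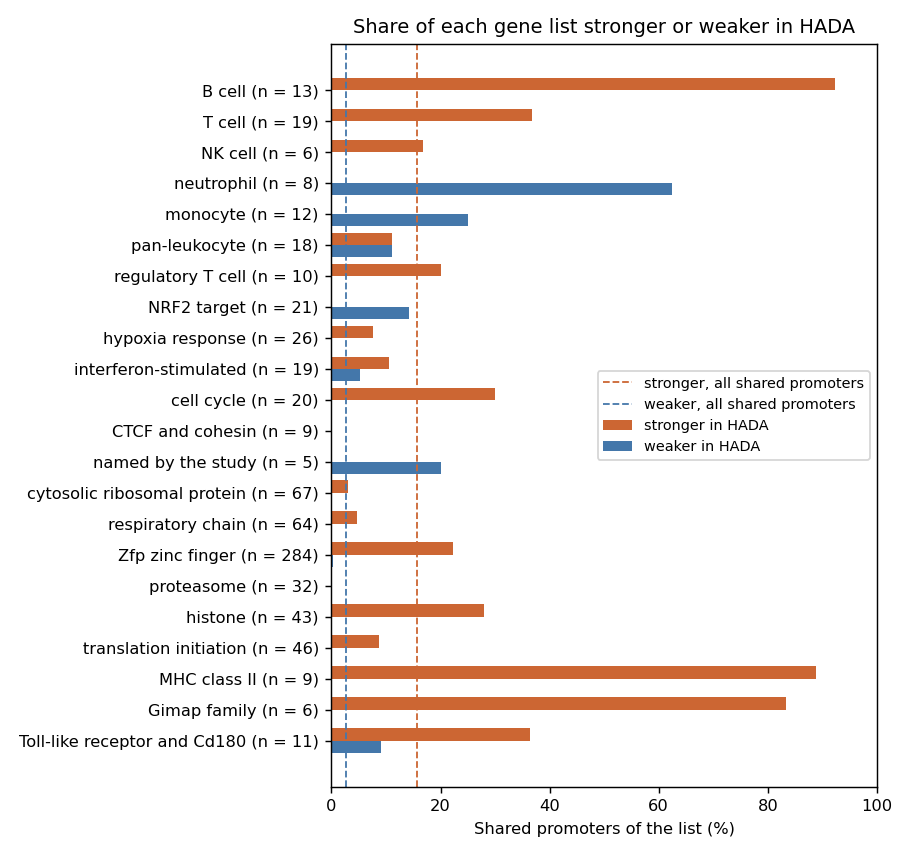
Share of the shared promoters of each gene list that were stronger (orange) or weaker (blue) in HADA, with n promoters per list and dashed lines at the shares over all 10109 shared promoters (15.7% and 2.61%). The B cell, MHC class II and Gimap bars stand far to the right of the orange line, and the neutrophil, monocyte and NRF2 target lists and the genes named by the study have blue bars only.

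Regulatory T cell, oxidative stress and oxygen response genes were looked at because the study concerns these. Of 10 shared promoters of regulatory T cell genes 2 were stronger, a share near the 15.7% of all shared promoters. The list had a median control percentile of 63.8, and 35.1% of all shared promoters with a mean percentile from 55 to 70 were stronger. The 2 were Tnfrsf18, which encodes the costimulatory receptor GITR, with pileups of 36, 31 and 22 reads against 82, 65 and 78, and 1 of the regions of Capg with 71, 65 and 35 against 138, 131 and 122. Of 21 promoters of genes known as targets of NRF2, the regulator of the antioxidant response, 0 were stronger and 3 were weaker (Srxn1, Slc7a11 and Gsr). The NRF2 targets had a median control percentile of 86.5. Of all shared promoters 15.7% were stronger and 2.61% weaker. Of those with a mean percentile above 85, 2.17% were stronger and 0.52% weaker. Nfe2l2, the gene of NRF2, stood between 95.6 and 98.4 in all libraries. It is 1 of 5 genes named by the study with a shared promoter, of which 0 were stronger and 1, the cytokine gene Il1b, was weaker.

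Of 26 promoters of hypoxia response genes 2 were stronger (7.69%, against 15.7% of all shared promoters). The list had a median control percentile of 89.0, and 2.17% of shared promoters with a mean percentile above 85 passed the rule. Mxi1, an antagonist of MYC, had 1 stronger region with percentiles of 63.2, 53.7 and 56.0 in controls and 75.5, 77.0 and 75.6 in HADA, and its other region was not stronger, with 71.7, 66.0 and 68.5 against 69.5, 70.2 and 73.3. Pdk1, the kinase that restrains pyruvate dehydrogenase, had 86.9, 86.7 and 80.3 against 93.3, 93.4 and 94.7. Of 19 promoters of interferon-stimulated genes 2 were stronger, Mx1 and 1 region of Ifit2, and 1 was weaker, Oasl1. The stronger share, 10.5%, is to be read beside 15.7% of all shared promoters, and the single weaker promoter beside 2.61%.

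Genes of growth and housekeeping differed by family. Of 20 cell cycle promoters 6 were stronger (30.0%, against 15.7% of all shared promoters) and 0 weaker: Cdk1, Ccnb1, Plk1 and Aurkb of mitosis and Mcm2 and Mcm6 of the replicative helicase. Cdk1, the mitotic kinase, had pileups of 31, 29 and 18 reads against 77, 56 and 76, and Ccnb1, its cyclin, 73, 66 and 38 against 174, 149 and 166. Mki67, the proliferation marker, was not stronger, with percentiles of 87.6, 83.5 and 86.4 in controls and 79.6, 80.1 and 83.5 in HADA. Histone genes held 12 stronger promoters of 43 (27.9%) and zinc finger genes with Zfp symbols 63 of 284 (22.2%), with 0 and 1 weaker. The shares were low for cytosolic ribosomal proteins, 2 of 67, for the respiratory chain, 3 of 64, for translation initiation factors, 4 of 46, for the proteasome, 0 of 32, and for CTCF and cohesin, 0 of 9. The low lists had high median control percentiles, from 85 to 95.5, and the histone and Zfp lists had 77.9 and 76.6. Of all shared promoters with a mean percentile above 85, only 2.17% were stronger.

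By mean percentile over the 6 libraries, 28.5% of shared promoters below 40 were stronger in HADA, 36.2% from 40 to 55, 35.1% from 55 to 70, 18.7% from 70 to 85 and 2.17% above 85. The last class held 4419 of the 10109 promoters. No list was matched promoter by promoter to others of equal rank. The median control percentile was 60.1 for the B cell list, 62.0 for MHC class II and 59.4 for Gimap. Such a median places a list only roughly, since the classes use all 6 libraries.

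Stronger promoters lay next to each other at 42 places where 3 or more neighbouring shared promoters all passed the rule, with spans from 10.9 to 2640 kb. Of all shared promoters 15.7% passed, and whether 42 is more than ungrouped promoters would give was not tested. The run with the most promoters had 6 over 101 kb of chromosome 6 and was the Gimap cluster, from Gimap8 through Gimap9, Gimap6, Gm28053 and Gimap1 to Gimap5. On chromosome 17, H2-Ob, H2-Ab1, H2-Aa and H2-Eb1 formed a run over 63 kb, and both H2-DMb2 regions and H2-DMb1 formed another over 10.9 kb. Ms4a1, Ms4a4c, Gm8369 and Ms4a6b made a run on chromosome 19. Other runs held Cd3e, Mpzl3 and Jaml on chromosome 9, the guanylate-binding protein genes Gbp5, Gbp7 and Gbp3 on chromosome 3, the histone genes H2bc14, H4c11 and H4c12 on chromosome 13, and Dusp22, Irf4, Exoc2 and Gmds over 1680 kb of chromosome 13. Irf4, a regulator of activated lymphocytes and plasma cells, had a mean percentile of 52.9 ± 24.9 (SD, n = 3) in controls and 81.6 ± 1.36 (SD, n = 3) in HADA. By chromosome, the share of shared promoters that were stronger ran from 12.0% on chromosome 12 to 20.8% on chromosome 13.

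In sequence, the promoters stronger in HADA were somewhat poorer in CpG than shared promoters as a whole, but richer at equal rank below the 70th percentile. Their ratio of observed to expected CpG, over 250 bp on each side of the strongest summit, had a median of 0.732 (quartiles 0.546 and 0.864), against 0.804 over all shared promoters and 0.286 over the 264 that were weaker. A ratio below 0.5 was found at 345 of the 1588 (21.7%), at 14.2% of all shared promoters and at 67.4% of the weaker ones. GC content had medians of 63.7% and 64.3%. By class of mean percentile, the median CpG ratio of stronger promoters against the other shared promoters was 0.619 against 0.531 below the 40th percentile, 0.688 against 0.597 from 40 to 55 and 0.728 against 0.721 from 55 to 70, and it was lower only from 70 to 85 (0.763 against 0.810) and above 85 (0.798 against 0.848). The median GC content of stronger promoters was higher in 4 of these 5 classes, for example 62.1% against 57.9% below 40, and equal at 64.1% from 70 to 85. Between the stretches printed above, the ratio was 0.153 at Il7r, 0.205 at Ms4a1, 0.259 at H2-Aa and 0.332 at Pou2af1, but 0.825 at Cldn23 and 0.894 at Lef1.

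By CpG class the shares differed. Promoters stronger in HADA made up 22.3% of shared promoters with a CpG ratio below 0.25, 25.3% from 0.25 to 0.5, 19.6% from 0.5 to 0.75, 12.9% from 0.75 to 1 and 8.26% above 1. Weaker promoters made up 19.5% and 7.70% of the 2 lowest classes and 1.35% or less of each of the others. In the class lowest in CpG, stronger and weaker promoters were thus near in number, 128 and 112. In the class from 0.75 to 1 there were 667 stronger and 45 weaker. These counts carry the upward shift of the promoters as a class. On the median-centred log2 pileup scale the median difference was -0.04 in the class from 0.75 to 1 and -0.35 in the class below 0.25.

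**Figure D5:**
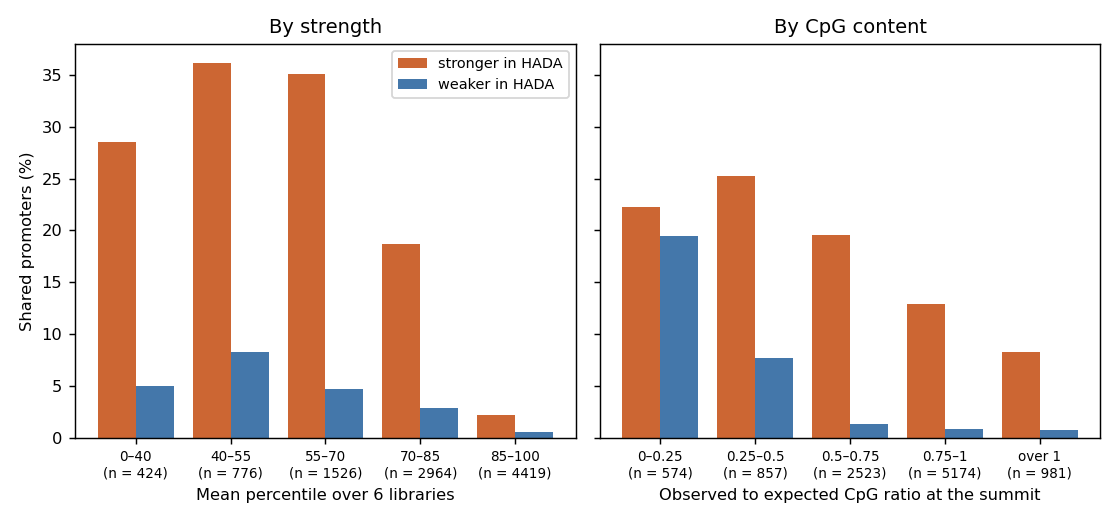
Share of shared promoters that were stronger (orange) or weaker (blue) in HADA, by mean percentile over the 6 libraries (left) and by the observed to expected CpG ratio around the strongest summit (right), with the number of shared promoters under each pair of bars. On the left the orange bar drops to 2.17% above the 85th percentile, and on the right the blue bar is nearly level with the orange only below a ratio of 0.25.

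Consensus motifs within 100 bp of the strongest summit, searched on both strands, are given as shares of the 1588 and of all shared promoters. The ETS motif CCGGAAGT was found at 2.77% of the 1588 and 4.97% of all shared promoters, the YY1 motif AAGATGGCG at 1.01% and 2.20%, and the cyclic AMP response element TGACGTCA at 0.819% and 1.63%. The ETS motif was less frequent in stronger promoters than in the others in each of the 5 rank classes. The lower shares of the other two lay mainly above the 70th percentile, since YY1 was at 1.07% against 0% from 40 to 55 and the cyclic AMP response element at 1.31% against 1.01% from 55 to 70. The GC box GGGCGGGG of SP factors was at 18.6% and 18.7%, but at equal rank it was more frequent in stronger promoters in each class, from 14.0% against 8.58% below 40 to 27.1% against 22.1% above 85. The rest are given over all ranks, with TGACNNNGC, the core of the NRF2 element, at 9.76% and 10.6%. The octamer ATGCAAAT, bound by the factors that Pou2af1 assists, was at 1.01% and 0.692%. The CEBP motif TTGCNNAA was at 3.15% and 4.16%, and at 12.5% of the weaker promoters. A match says only that these letters are present.

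Position and shape differed a little. The strongest summit lay in an untranslated exon at 47.5% of the 1588, in an intron at 21.7%, outside transcripts at 15.6% and in a coding exon at 15.3%, against 52.0%, 17.0%, 17.6% and 13.4% of all shared promoters. Starts of protein-coding genes on both strands, the arrangement of a bidirectional promoter, were within reach at 5.86% of the 1588 and 11.5% of all. The strongest summits of the 6 libraries lay within 200 bp of each other at 64.7% of the 1588 and 75.2% of all, so at the others the libraries may be ranked on different summits. The peaks were wider in HADA at 95.0% of the 1588 and 87.4% of all, with median widths over the 1588 of 784 bp in controls and 980 bp in HADA. The 1588 regions carried 1559 distinct gene symbols.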

How the data were processed

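ATAC-seq libraries, 3 labelled control and 3 labelled HADA, were compared. The number of animals is not given in the labels. Reads were trimmed (Trimmomatic), mapped to GRCm39 (Bowtie2), cleared of duplicates (Picard) and turned into 1 peak list per library (MACS2) by the authors. Options and versions, and any shift for the Tn5 insertion, are not given in the sources used here. The deposited lists give for each peak a fold enrichment over local background (a ratio), the p-value and q-value on a −log10 scale, and a score. Read depth is unknown, so no counting interval is given.

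Strength was the percentile of the −log10 p-value. The summit pileup was solved from the deposited fold and −log10 p-value under the Poisson model of the peak caller. It gave back the −log10 p-value within 0.1% for 100% of peaks, while the fold was met by construction. Each promoter was assigned to the nearest protein-coding start of GENCODE M39. Shared promoters were fitted with limma 3.58.1 (R 4.3.3), with Benjamini-Hochberg adjustment, tested on simulated data. Such p-values measure the spread between libraries only. Deviations from the group mean at each promoter correlated between same-numbered libraries at -0.19, 0.09 and -0.16, so the numbers were not treated as pairs. Named promoters are the 20 with the widest gap, those at the threshold, list members and members of runs. A few, such as Cd37, Ccr7 or Ly86, were added after their values were seen. The members, gene lists and motifs were chosen with earlier results of these data known. Alternatives were other rankings, gaps, windows and lists, and each library left out. The count matrix named in the study was not used here. Reference sequences were read from GRCm39 by coordinates.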

Additional observations from a re-analysis of the deposited data

How the results depend on the processing

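The number of promoters stronger in HADA, 1588, followed the gap, with 2423 at a gap of 3 points and 571 at 10 points. It was 959 when promoters were ranked among shared promoters only, a choice added after seeing the data, and 1027 when the strongest summits had to lie within 200 bp of each other. Leaving out each library gave 1716 to 3328, the last without control 1. Fold enrichment, pileups, 500 bp, any transcript, a q-value limit, equal list lengths and shared regions only gave counts within 1.5 times of 1588, from 1189 to 1982, but kept different shares of it, 53.6% with fold enrichment, 74.2% with equal list lengths and 86.7% or more with the rest. Ranking among shared promoters only kept 43.8%. The promoters weaker in HADA numbered 264, and 985 and 439 when ranked among shared promoters or shared regions. They numbered 133 at a gap of 10 points and 151 with the strongest summits within 200 bp. The excess of stronger over weaker promoters was lost when ranked among shared promoters only. The limma counts were 1282 higher and 1309 lower. With the replicate number as a block they were 818 and 978, though the numbers pair nothing in the labels. With all shared regions in the fit 1535 were higher and 485 lower. Leaving out each library gave 291 to 1384 higher and 539 to 1331 lower, with 708, 291 and 337 higher without HADA 1, 2 and 3 and 539 and 559 lower without HADA 2 and 3. The median difference of the 20 named promoters was 37.9 points, 29.0 with fold enrichment and 31.6 among shared regions. The causes of these shifts were not tested. With 3 libraries a group, an exact permutation test of 1 promoter cannot go below p = 0.1.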
